A study of Homo sapiens with 9 samples.

Results

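The genes described here are 10 markers of epithelial and mesenchymal state, chosen by symbol out of 24204 gene symbols measured, with earlier results of these data known. They are the keratins KRT8, KRT18, KRT19 and KRT23, the cadherins CDH1 and CDH2, the adhesion molecule EPCAM, the intermediate filament gene VIM, and the transcription factors ZEB1 and SNAI2. RNA-seq was performed on HepG2, an established human hepatocellular carcinoma line with an epithelial shape, after lentiviral delivery of a control hairpin, shCtrl, or of shTRIB3-1 or shTRIB3-2, each a different hairpin that targets TRIB3. TRIB3 is a stress-induced pseudokinase. Each group held 3 libraries, all 9 from the same cell line, and every group including shCtrl had been infected for 48 h and then kept in puromycin for 48 h. The labels give high-glucose medium with 10% serum for all libraries. The study's RNA-seq methods, written jointly for these libraries and a glutamine series, describe glutamine-deprived cells. Its account of the knockdown RNA-seq mentions no deprivation, but the medium at harvest remains uncertain. Levels are in FPKM, fragments scaled for gene length and for library depth. Comparisons between genes are approximate, since this scaling does not correct for reads that cannot be assigned to one gene.

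Keratins form the intermediate filaments of epithelial cells from pairs of one type I chain and one type II chain. Hepatocytes carry KRT8 (type II) and KRT18 (type I), while KRT19 (type I) marks bile duct cells, liver progenitors and a subset of liver cancers. E-cadherin (CDH1) and N-cadherin (CDH2) join neighbouring cells at adherens junctions, and adult hepatocytes make both. In an epithelial to mesenchymal transition, repressors such as ZEB1 and SNAI2 bind E-box elements (CAGGTG) in epithelial genes including CDH1, while VIM, the filament protein of mesenchymal cells, is induced.

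The target sequences of both hairpins are given first, since every comparison rests on them, in lower case and 5′ to 3′ on the plus strand of GRCh38. Both lie in coding sequence of TRIB3.
shTRIB3-1: tggatgacaacttagataccg
shTRIB3-2: gccgtgctcttccgccagatg
The first is at chr20:388072-388092 and is found in 4 of 4 annotated TRIB3 transcripts, the second at chr20:391473-391493 and in 3 of 4 (GENCODE v44). Neither 21-base target occurs in any of the 105 annotated transcripts of the 10 genes. TRIB3 itself stood at 65.8 to 67.9 FPKM under the control hairpin, at 32.7 to 34.1 FPKM with shTRIB3-1 and at 20.4 to 20.7 FPKM with shTRIB3-2, lower in both knockdown groups and without overlap. Library totals lay between 34206726 and 36311029 fragments. All 9 hepatocyte markers examined reached 1 FPKM. They summed to 8381 to 9034 FPKM in shCtrl, 8601 to 9040 in shTRIB3-1 and 10816 to 11129 in shTRIB3-2. Single markers differed in direction, with TTR higher and FGB lower than shCtrl in both knockdown groups.

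Of the 8 genes abundant enough to be tested, KRT19 was the one whose mRNA rose by more than a factor of 2 with each hairpin. ZEB1 rose by a smaller amount with each. The other 6 tested genes were within 0.15 of shCtrl on the log2 scale with each hairpin. VIM and SNAI2 were not tested, with 6 fragments or fewer in every library, although the SNAI2 means were 4.45- and 3.64-fold those of shCtrl. A gene was tested if 3 or more libraries reached 1 FPKM, a filter met by 11265 genes and by 8 of the 10 described here. It passed when its adjusted p was under 0.05 in limma fitted to log2(FPKM + 0.1), and was called when its log2 fold change was also beyond 1 in either direction. With shTRIB3-1, 3 of the 8 passed (KRT19, ZEB1 and CDH2, all higher), against 74.4% of all tested genes (32.9% higher and 41.5% lower). With shTRIB3-2, 3 of 8 passed (KRT19 and ZEB1 higher, KRT8 lower), against 75.9% of all tested genes (35.4% higher and 40.5% lower). KRT19 was the 1 called gene of the 8 with each hairpin, where 5.39% of all tested genes were called higher and 6.10% lower with shTRIB3-1, and 6.06% and 6.27% with shTRIB3-2. The median absolute log2 fold change of the 8 was 0.07 with shTRIB3-1 and 0.10 with shTRIB3-2, and over all tested genes 0.32 and 0.34. Both hairpins were compared with the same 3 shCtrl libraries. Nothing states that the libraries of a group came from separate cultures, so p-values measure only the spread between these libraries.

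**Figure D1:**
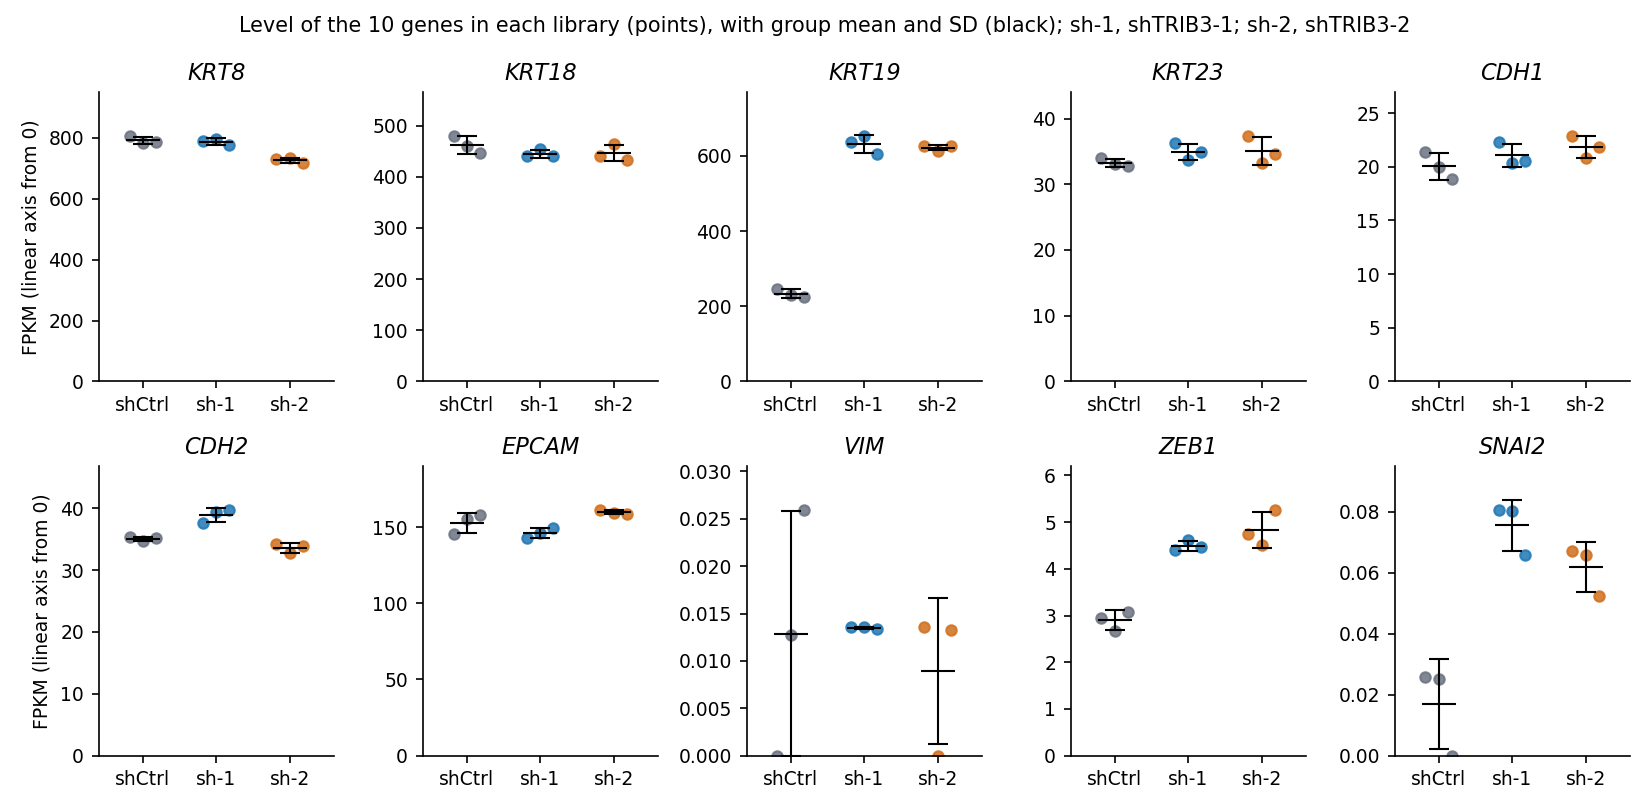
FPKM of each of the 10 genes (one panel per gene, linear axes from 0) in the 9 libraries, grouped as shCtrl, shTRIB3-1 and shTRIB3-2, with points for libraries and black lines for the group mean and SD. The KRT19 points of both knockdown groups lie at 606 to 653 FPKM, above the shCtrl points at 225 to 246, and the ZEB1 points of both are also above shCtrl.

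KRT19, the type I keratin of bile duct cells, stood below both hepatocyte keratins in shCtrl and between them in the knockdown libraries. It stood at 246, 231 and 225 FPKM in the shCtrl libraries, at 636, 653 and 606 FPKM in shTRIB3-1, and at 627, 614 and 626 FPKM in shTRIB3-2. Every knockdown library was above every shCtrl library, and the knockdown groups overlapped each other. The group means were 234 ± 10.9, 632 ± 23.5 and 622 ± 6.81 FPKM (SD, n = 3 each), a 2.70-fold and a 2.66-fold difference from shCtrl. The limma log2 fold changes were 1.43 ± 0.04 for shTRIB3-1 and 1.41 ± 0.04 for shTRIB3-2 (± SE, adjusted p = 2.39e-11 and 1.89e-11). The 95% intervals correspond to 2.55- to 2.87-fold and 2.51- to 2.83-fold. Between the hairpins the difference was -0.02 on the log2 scale, with an interval from -0.11 to 0.06 (adjusted p = 0.686). In bulk RNA, more cells that make KRT19 and more KRT19 mRNA per cell cannot be told apart.

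Few transcripts as abundant as KRT19 rose by as much. Of the 185 other tested genes with a mean shCtrl FPKM at least as high as that of KRT19, 1 had a larger log2 fold change with shTRIB3-1 and 1 with shTRIB3-2. In both cases it was LGALS1, encoding galectin-1, at 265 FPKM in shCtrl and with log2 fold changes of 1.80 and 1.90 (named after its values were seen). Over all 11265 tested genes, in which large folds are mostly those of less abundant transcripts, the KRT19 log2 fold change ranked 333rd with shTRIB3-1 and 366th with shTRIB3-2. By FPKM, KRT19 moved from rank 170 to 194 among all symbols in the shCtrl libraries to rank 56 to 64 in shTRIB3-1 and rank 50 to 56 in shTRIB3-2.

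KRT8, the type II chain and the most abundant of the 10 genes, stood at 806, 784 and 787 FPKM in shCtrl and at 791, 797 and 775 FPKM in shTRIB3-1. These groups overlapped, and the log2 fold change of -0.01 (adjusted p = 0.818) had a 95% interval from -0.07 to 0.06. In the shTRIB3-2 libraries KRT8 stood at 730, 733 and 717 FPKM, below every other library. KRT8 fell by 0.12 on the log2 scale with shTRIB3-2 (SE 0.03, adjusted p = 0.00256), and its group mean dropped by 8.29%, although with quantile normalization its difference turned to 0.09 (adjusted p = 0.0507) and with median centring it was -0.07 (adjusted p = 0.153).

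KRT18, the type I partner of KRT8, stood at 479, 460 and 446 FPKM in shCtrl, at 440, 453 and 440 FPKM in shTRIB3-1 and at 441, 463 and 433 FPKM in shTRIB3-2. The 3 groups overlapped. Its log2 fold changes were -0.05 with each hairpin (adjusted p = 0.199 and 0.229), with 95% intervals from -0.14 to 0.03 and from -0.13 to 0.03. With quantile normalization the KRT18 difference turned to 0.18 with shTRIB3-2 (adjusted p = 0.000188). KRT23, another type I keratin, had group means of 33.3 ± 0.60, 35.0 ± 1.25 and 35.0 ± 2.09 FPKM (SD, n = 3 each). Its lowest library in each knockdown group lay inside the shCtrl range of 32.8 to 33.9 FPKM, and the log2 fold changes were 0.07 and 0.07 (adjusted p = 0.166 and 0.151), with upper 95% bounds of 0.17 each.

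KRT8 and KRT18 are neighbours on chromosome 12 that overlap on opposite strands by 1084 bases, which is 7.63% of the annotated exon bases of KRT8 and 17.1% of those of KRT18 (GENCODE v44). The counting strand is not stated, so reads in that stretch cannot be assigned to one of them here. KRT19 (chr17:41523617-41528308, minus strand, GRCh38) overlaps no other annotated gene on either strand. No processed pseudogene of KRT8, KRT18 or KRT19 was among the symbols analysed, so reads shared with such copies could not be assessed.

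**Figure D2:**
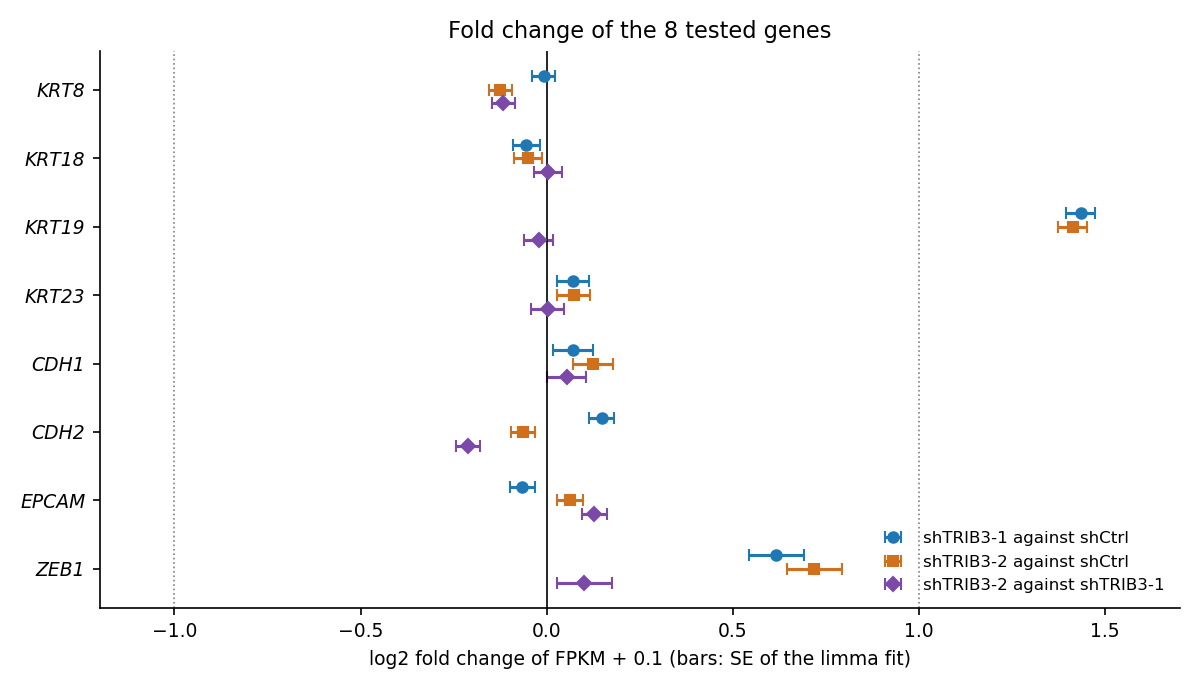
Log2 fold changes (x axis) of the 8 tested genes in the 3 comparisons, with bars for the SE of the limma fit and dotted lines at the call threshold of 1 in each direction. KRT19 lies at 1.43 and 1.41 against shCtrl, ZEB1 at 0.62 and 0.72, and the other 6 genes within 0.15 of 0 against shCtrl, while CDH2 lies at -0.21 between the hairpins.

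The rise of KRT19 changed the makeup of the keratin mRNA of these cells. Summed over the 31 keratin genes measured, keratin mRNA came to 1532 ± 38.3 FPKM with shCtrl, against 1920 ± 41.0 and 1855 ± 17.4 FPKM with the TRIB3 hairpins (SD over 3 libraries). KRT8, KRT18, KRT19 and KRT23 together made up 99.3%, 98.9% and 98.6% of it. The share of KRT19 was 15.3% ± 0.33 in shCtrl, 32.9% ± 0.53 in shTRIB3-1 and 33.6% ± 0.62 in shTRIB3-2. Among the 19 type I chains, KRT19 went from 31.7% ± 0.33 of the summed FPKM to 56.1% ± 0.65 and 55.4% ± 0.99, so that in the knockdown libraries it exceeded KRT18. The share of KRT8 was 51.7%, 41.0% and 39.2%, and that of KRT18 was 30.1%, 23.2% and 24.0%.

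The summed FPKM of type I chains was near that of the 12 type II chains in shCtrl, with a ratio of 0.93 ± 0.02. It was 1.42 ± 0.02 and 1.54 ± 0.01 with shTRIB3-1 and shTRIB3-2 (SD over 3 libraries), and no library of one group reached the range of another. These are mRNA levels and say nothing of the chains as protein. The ratio of KRT19 to KRT18 within a library, which does not depend on scaling between libraries, was 0.51 ± 0.01, 1.42 ± 0.04 and 1.40 ± 0.06. On the log2 scale it was 1.49 and 1.46 above shCtrl with the 2 hairpins (exact permutation test, two-sided, p = 0.1 each, the smallest that 3 against 3 can give, added after the data were seen). Adjusted together with the other ratios computed, both were 0.2. The log2 ratio of KRT8 to KRT18 was 0.78 ± 0.04 in shCtrl, 0.83 ± 0.02 in shTRIB3-1 and 0.71 ± 0.04 in shTRIB3-2. It differed from shCtrl by 0.05 (exact permutation p = 0.3) and -0.07 (exact permutation p = 0.1), adjusted over 9 comparisons to 0.386 and 0.225.

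**Figure D3:**
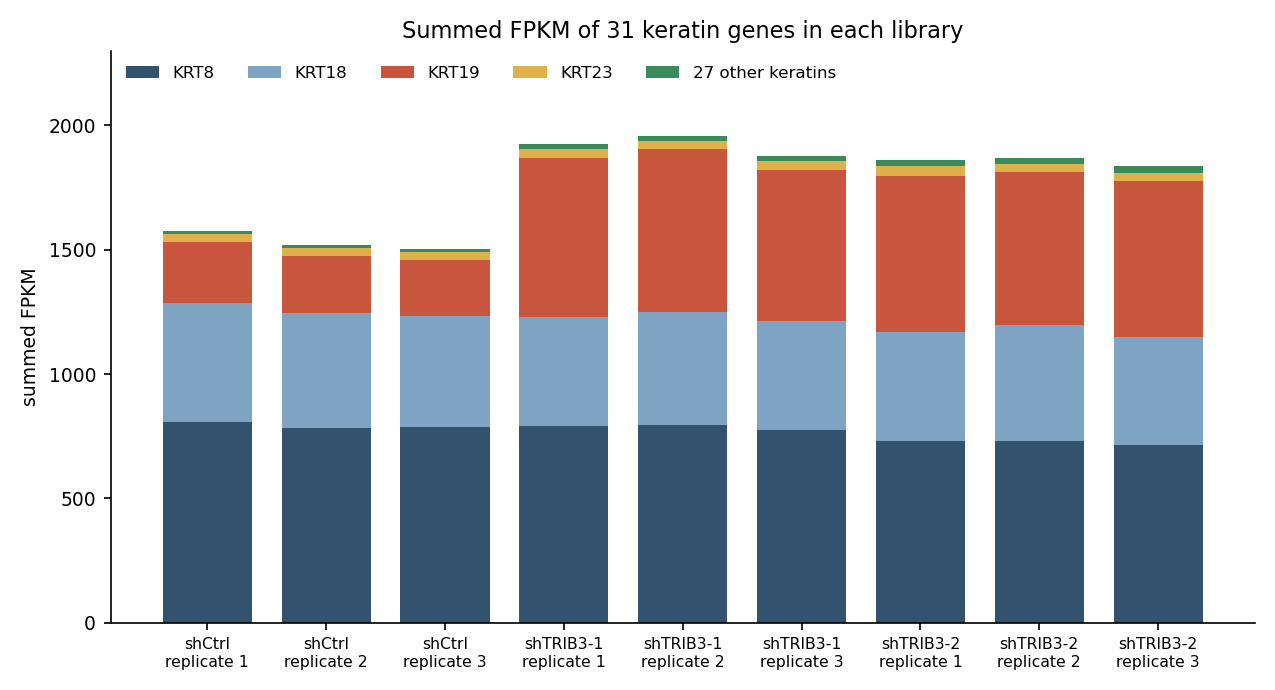
Summed FPKM of the 31 keratin genes measured (y axis, from 0) in each of the 9 libraries, stacked by gene. The KRT19 segment takes 15.3% of the bar on average in shCtrl, 32.9% in shTRIB3-1 and 33.6% in shTRIB3-2, and the KRT8 segment 51.7%, 41.0% and 39.2%.

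Beyond the 4 keratins above, 5 keratins passed the filter on low values, all at under 11 FPKM. KRT15, a type I keratin of basal cells, lies 1087 bases from KRT19 and had group means of 1.05 ± 0.29, 3.68 ± 0.09 and 4.52 ± 0.22 FPKM (SD, n = 3 each). It rose by 1.76 with shTRIB3-1 and by 2.05 with shTRIB3-2 on the log2 scale (limma, adjusted p = 4.49e-07 and 9.71e-08). KRT20, a type I keratin of the gut epithelium, rose from 0.45 to 1.76 and 3.25 FPKM, and KRT80 from 2.18 to 4.79 and 5.00 FPKM. KRT12, a keratin of the cornea, rose from 0.14 to 1.5 and 1.61 FPKM, and is named here, although in no list, because all tested keratins are. KRT12 and KRT20 reached 1 FPKM in no shCtrl library, so they met the filter only through the knockdown groups. KRT10, a keratin of the epidermis, passed with shTRIB3-2 (log2 fold change 0.56, adjusted p = 0.000293) and had a log2 fold change of 0.11 with shTRIB3-1 (adjusted p = 0.357).

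KRT19 lies in the type I keratin cluster on chromosome 17, and 9 other genes within 100 kb of it were measured. KRT15 was the 1 of these 9 that could be tested. KRT37, 99031 bases away, had group means of 0.01, 0.81 and 0.80 FPKM and did not meet the filter (named after its values were seen). The other 7 stayed under 1 FPKM in all libraries, among them KRT14 at 0.01, 0.35 and 0.05 FPKM and KRT17 at 0.12, 0.15 and 0.20 FPKM. KRT23 is in the same cluster, 585970 bases from KRT19.

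The 5 tested genes whose levels followed those of KRT19 most closely were VCAN, PPP1R18, SSUH2, PPP1R15A and MAFF. Likeness was measured as the root mean square difference over the 9 libraries between log2 levels centred on shCtrl, which was 0.044 for VCAN and 0.065 for MAFF. VCAN, encoding the matrix proteoglycan versican, had means of 20.2, 57.0 and 54.3 FPKM in the 3 groups. PPP1R15A, encoding GADD34, which brings protein phosphatase to eIF2α during stress, had means of 20.3, 52.5 and 54.9 FPKM. MAFF, a small Maf transcription factor, had means of 5.78, 14.8 and 15.8 FPKM. With 3 groups and one dominant difference, a like pattern over 9 libraries describes little more than a like pair of fold changes.

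Because KRT19 is also a bile duct marker, 5 markers of cholangiocytes were examined beside it. Their summed FPKM was 624 to 647 for shCtrl, 203 to 205 for shTRIB3-1 and 140 to 145 for shTRIB3-2, the opposite direction to KRT19. SPP1, encoding osteopontin, accounted for most of the sum, at 583 to 608, 180 to 181 and 120 to 125 FPKM. SOX9, a transcription factor of bile duct and progenitor cells, was at 39.2 to 44.1, 22.0 to 24.3 and 18.6 to 19.8 FPKM. KRT7, the usual type II partner of KRT19 in bile ducts, was under 0.2 FPKM in every library, as were CFTR and AQP1. The part of such cells in the KRT19 result was not tested.

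CDH1 and EPCAM, the epithelial adhesion genes, passed with neither hairpin. CDH1 stood at 21.4, 19.9 and 18.9 FPKM in shCtrl, at 22.3, 20.4 and 20.5 FPKM in shTRIB3-1 and at 22.9, 20.8 and 21.9 FPKM in shTRIB3-2, and the groups overlapped. Its log2 fold changes were 0.07 and 0.12 (adjusted p = 0.248 for shTRIB3-1 and 0.0522 for shTRIB3-2), with 95% intervals from -0.05 to 0.19 and from 0.01 to 0.24. With shTRIB3-2 it passed in 8 of 18 alternative settings, in which its adjusted p ran from 0.00921 to 0.207.

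EPCAM, an adhesion molecule of simple epithelia and liver progenitors, stood at 145, 155 and 158 FPKM in shCtrl, at 143, 146 and 149 FPKM in shTRIB3-1 and at 161, 159 and 158 FPKM in shTRIB3-2. Its log2 fold changes against shCtrl were -0.07 and 0.06 (adjusted p = 0.103 and 0.113). The shTRIB3-2 libraries were all above the shTRIB3-1 libraries, by 0.13 on the log2 scale (SE 0.03, adjusted p = 0.0092), while with median centring this difference was 0.10 (adjusted p = 0.0656).

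CDH2 rose with shTRIB3-1 and did not pass with shTRIB3-2. It stood at 35.4, 34.7 and 35.2 FPKM in shCtrl, at 37.6, 39.4 and 39.6 FPKM in shTRIB3-1 and at 34.2, 32.7 and 33.8 FPKM in shTRIB3-2, with no overlap between groups. CDH2 rose by 0.15 on the log2 scale with shTRIB3-1 (SE 0.03, adjusted p = 0.00134), although after conversion to TPM the difference was 0.09 (adjusted p = 0.0534). With shTRIB3-2 its log2 fold change was -0.06 (adjusted p = 0.0947), with a 95% interval from -0.13 to 0.01. The hairpins differed by -0.21 (SE 0.03, adjusted p = 0.000258). Within libraries, the ratio of CDH2 to CDH1 was 1.75 ± 0.10 in shCtrl, 1.85 ± 0.14 in shTRIB3-1 and 1.54 ± 0.04 in shTRIB3-2. On the log2 scale it differed from shCtrl by 0.08 with shTRIB3-1 (exact permutation p = 0.3) and by -0.19 with shTRIB3-2 (exact permutation p = 0.1, the smallest possible).

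ZEB1, the repressor of epithelial genes, rose with both hairpins from a low level. It stood at 2.95, 2.66 and 3.08 FPKM in shCtrl, at 4.40, 4.62 and 4.46 FPKM in shTRIB3-1 and at 4.74, 4.51 and 5.25 FPKM in shTRIB3-2. Every knockdown library was above every shCtrl library. The limma log2 fold changes were 0.62 ± 0.07 for shTRIB3-1 and 0.72 ± 0.07 for shTRIB3-2 (± SE, adjusted p = 9.23e-06 and 2.14e-06), with 95% intervals of 1.37- to 1.72-fold and 1.47- to 1.84-fold. The difference between hairpins was 0.10, with an interval from -0.06 to 0.26 (adjusted p = 0.288). These levels rest on 793 to 1511 fragments a library. Rises of this size were common, as ZEB1 ranked 1259th and 1177th by log2 fold change among the 11265 tested genes.

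ZEB1 (chr10:31318495-31529814, plus strand, GRCh38) shares 4.58% of its exon bases with ZEB1-AS1, a long non-coding RNA on the opposite strand that starts beside it. ZEB1-AS1 had means of 1.87, 1.79 and 1.82 FPKM and did not pass with either hairpin (log2 differences -0.06 and -0.04, adjusted p = 0.549 and 0.719). The ZEB1 promoter is shown since its transcript rose while the divergent one gave no passing difference. The 120 bases before the RefSeq start site are at chr10:31318297-31318416 of GRCh38.p14, plus strand, printed 5′ to 3′ with the E-box CAGGTG in capitals.
ZEB1: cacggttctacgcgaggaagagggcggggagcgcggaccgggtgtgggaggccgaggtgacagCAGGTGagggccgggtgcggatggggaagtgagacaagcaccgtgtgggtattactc
RefSeq promoters of 250 bases before to 50 after the start were matched for 4 of the 10 genes (KRT8, CDH2, VIM and ZEB1), and were searched for CAGGTG on both strands, that is for CAGGTG and CACCTG. The ZEB1 match, whose first base is at -57 from the start, was the 1 found in these 4. Of all 35116 promoters of the same length, 20.6% hold the element, so the match only describes the sequence, and binding was not tested.

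The mesenchymal filament gene VIM was at or under 2 fragments in every library. It had 0, 1 and 2 fragments in shCtrl, 1 in each shTRIB3-1 library, and 1, 0 and 1 in shTRIB3-2. A count of 3 fragments, the floor used here, corresponds to 0.038 to 0.041 FPKM for VIM, and every library was under it, so no difference was detectable at this depth. VIM-AS1 and a second antisense gene overlap 24.6% of the exon bases of VIM. SNAI2, encoding the repressor Slug, had 2, 2 and 0 fragments in shCtrl, 6, 6 and 5 in shTRIB3-1 and 5, 5 and 4 in shTRIB3-2. Its knockdown libraries were all above its shCtrl libraries, at means of 0.076 and 0.062 FPKM against 0.017 FPKM. In a fit without the filter its log2 fold changes were 0.59 (adjusted p = 0.00173) and 0.47 (adjusted p = 0.00609), on a scale where the added 0.1 FPKM is larger than the levels themselves. By FPKM, SNAI2 ranked no higher than 14966th of 24204 symbols in any library.

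In order of level, the shCtrl libraries held KRT8, KRT18, KRT19, EPCAM, CDH2, KRT23, CDH1 and ZEB1, with no overlap in FPKM between neighbours in this order. In the knockdown groups KRT19 and KRT18 changed places. In shTRIB3-2, CDH2 at 32.7 to 34.2 FPKM and KRT23 at 33.2 to 37.3 FPKM overlapped.

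All libraries came from the same cell line, and markers of fibroblasts, endothelial cells and leukocytes were examined beside the 10 genes. None of 6 fibroblast and stellate cell markers reached 1 FPKM in any library, and their sum stayed between 0.076 and 0.21 FPKM, with COL1A1, COL1A2, COL3A1, DCN and LUM under 0.1 FPKM throughout. Of 5 endothelial markers, TIE1, a receptor tyrosine kinase, was at 0.26 to 0.35 FPKM in shCtrl, 7.49 to 8.74 with shTRIB3-1 and 5.69 to 5.95 with shTRIB3-2. PECAM1, VWF, KDR and CLDN5 stayed under 0.2 FPKM. Of 5 leukocyte markers, LYZ, encoding lysozyme, took most of the sum and was at 1020 to 1145, 492 to 523 and 577 to 616 FPKM, while PTPRC and CD3E stayed under 0.05 FPKM. In the same order of groups, CD68 was at 28.9 to 35.0, 35.9 to 38.9 and 32.3 to 34.2 FPKM. CD14 was at 0.94 to 1.27, 0.24 to 0.28 and 0.25 to 0.42 FPKM. The part of other cell types in the results was not tested.

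Beside the 10 genes, 6 wider lists of 175 genes in all were counted, of which 96 could be tested. Of these 96, 47 passed higher and 27 lower with shTRIB3-1, and 57 higher and 23 lower with shTRIB3-2, which is 77.1% and 83.3% of them, against 74.4% and 75.9% of all tested genes. With each hairpin 20 were called higher and 7 lower, 28.1% of those tested, where over all tested genes 5.39% and 6.06% were called higher and 6.10% and 6.27% lower. Of the 96, 7 reached 1 FPKM in no shCtrl library (CDH16, FOXC1, ITGA5, KLF4, KRT20, SNAI1 and SPINT2) and 1 in no knockdown library (TJP3). These met the filter only through the groups in which they were high, which favours a difference there (FOXC1 and SNAI1 are named after their values were seen). It does not force one with both hairpins, as FOXC1 did not pass with shTRIB3-2 (limma log2 fold change 0.19, adjusted p = 0.298). Among the other 88, 14 and 15 were called higher with shTRIB3-1 and shTRIB3-2, and 6 lower with each. The counts below were not tested against the background, and a list in which about 3 in 4 genes passed is near it. Differences between the hairpins were smaller: 35 passed higher and 21 lower in shTRIB3-2 against shTRIB3-1, where 45.8% of all tested genes passed (25.1% higher and 20.7% lower). In that comparison 1 was called higher (CDH16) and 2 lower (ITGA5 and TAGLN), against 0.284% and 1.79% of all tested genes.

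Of 8 tested genes among other keratins and intermediate filaments, 5 passed higher and 2 lower with each hairpin, with median log2 fold changes of 0.61 and 0.86, against -0.06 and -0.03 over all tested genes. The nuclear lamina gene LMNB1, a gene whose mRNA is high in cycling cells, fell from 34.5 ± 0.62 FPKM to 6.94 ± 0.87 and 4.35 ± 0.07 (SD over 3 libraries), with limma log2 differences of -2.30 and -2.96 (adjusted p = 5.74e-11 and 5.43e-12). NES, encoding nestin, a filament protein of progenitor cells, rose from 9.51 to 28.9 and 23.8 FPKM (log2 fold changes 1.60 and 1.32).

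Desmosomes anchor keratin filaments at the cell border, and the desmosome list also holds filament linkers such as PLEC. Of its 11 tested genes, 6 passed higher and 2 lower with shTRIB3-1, and 8 higher and 2 lower with shTRIB3-2. The median log2 fold changes were 0.32 and 0.29. PLEC, encoding plectin, which links intermediate filaments to other structures, was called with both hairpins, at 6.91 ± 0.25, 14.4 ± 0.58 and 14.3 ± 0.67 FPKM (SD, n = 3 each). Its log2 fold changes of 1.05 and 1.04 lay just past the threshold, and with a pseudocount of 1 they were 0.96 and 0.96 and PLEC was no longer called. Among 12 tested adherens junction and cadherin genes, 5 passed higher and 2 lower, and 7 higher and 3 lower, with medians of 0.07 and 0.25. CDH16, the kidney cadherin, was the 1 called with both hairpins, at 0.17, 1.12 and 2.36 FPKM. When the fit held only the 6 libraries of shTRIB3-1 and shCtrl, CDH16 did not meet the filter, so that call rests on the shTRIB3-2 libraries.

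The 26 tested tight junction and polarity genes split by direction, with 10 passing higher and 11 lower with shTRIB3-1, and 13 higher and 8 lower with shTRIB3-2 (medians 0.04 and 0.20). CLDN4 and CLDN6, claudins that seal the space between cells, rose from 61.0 to 143 and 138 FPKM and from 67.8 to 147 and 166 FPKM. CGN, encoding cingulin of the junction plaque, rose from 1.86 to 5.36 and 6.32 FPKM. TJP3, encoding the scaffold ZO-3, fell from 2.26 to 0.35 and 0.58 FPKM. Between the hairpins, 16 of the 26 passed higher in shTRIB3-2 and 1 lower.

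Of 18 tested epithelial regulators and surface genes, 8 passed higher and 6 lower with shTRIB3-1, and 9 higher and 4 lower with shTRIB3-2 (medians -0.04 and 0.15). KLF4 and KLF5, Krüppel-like transcription factors of epithelia, rose from 0.50 to 4.0 and 2.10 FPKM and from 3.83 to 12.2 and 9.73 FPKM. CD24, a surface glycoprotein of progenitor cells, rose from 1.26 to 6.36 and 5.72 FPKM, and SPINT2, a serine protease inhibitor, from 0.31 to 1.28 and 1.27 FPKM. Of 21 tested mesenchymal genes, 13 passed higher and 4 lower with shTRIB3-1, and 15 higher and 4 lower with shTRIB3-2, with medians of 0.53 and 0.35. ITGA5, an integrin chain that binds fibronectin, stood at 0.099, 1.89 and 0.56 FPKM. It met the filter only through shTRIB3-1, was not tested when the fit held only the 6 libraries of shTRIB3-2 and shCtrl, and with a pseudocount of 1 had a log2 difference of 0.51 with shTRIB3-2, which was not called. S100A4, a calcium-binding protein of motile cells, rose from 2.67 to 10.8 and 8.93 FPKM, and the protease gene CTSL from 27.6 to 68.0 and 62.7 FPKM. LOX, encoding the collagen crosslinker lysyl oxidase, fell from 13.7 to 3.66 and 3.23 FPKM. SNAI1, the relative of SNAI2, rose from 0.87 to 2.35 and 1.78 FPKM, with log2 fold changes of 1.33 and 0.92 (named after its values were seen).

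**Figure D4:**
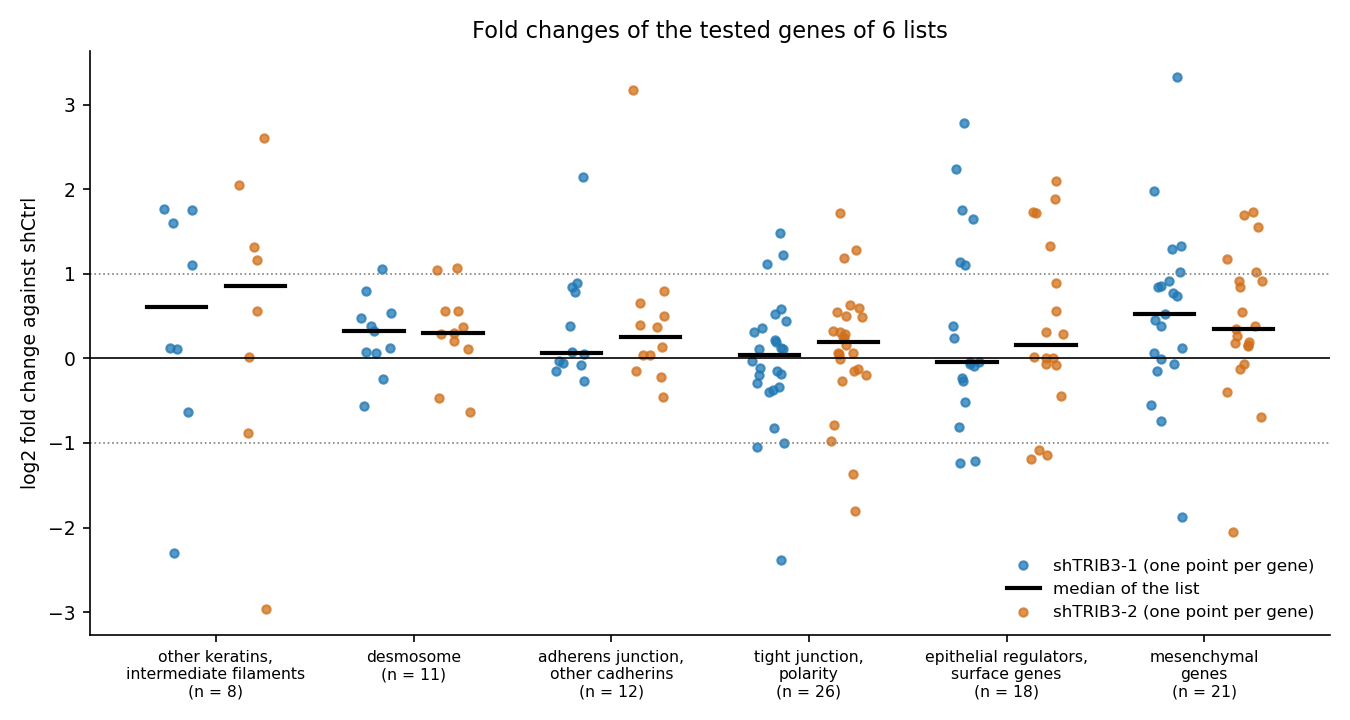
Log2 fold change against shCtrl (y axis) of each tested gene of 6 lists, one point per gene and hairpin, with black bars for the list median and dotted lines at the call threshold of 1 in each direction. Points lie on both sides of 0 in every list, and the medians run from -0.04 to 0.86.

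Between the hairpins, 3 of the 8 tested genes passed (EPCAM higher, KRT8 and CDH2 lower in shTRIB3-2) against the 45.8% given above, and none was called by limma. KRT8 differed by -0.12 (SE 0.03, adjusted p = 0.00804), with shTRIB3-1 and shTRIB3-2 libraries that did not overlap. The 95% intervals of KRT18, KRT19, KRT23, CDH1 and ZEB1 in this comparison all included 0. The widest of them was that of ZEB1, and those of KRT18 and KRT19 lay within 0.11 of 0.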

How the data were processed

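The deposited table holds FPKM for 24204 gene symbols in 9 libraries, which the authors computed from paired-end reads aligned to GRCh38 with STAR, and the submitters' processing notes name HTSeq and R 3.2.0. The annotation and counting strand are not given in the sources used here, and the methods and labels name different library kits. FPKM does not correct for composition. Gene lengths and totals were solved from the table, and 99.99% of values above 0 were whole fragments within 0.02. The floors in fragments cover counting error only, and the 95% intervals of fold changes come from the limma fit and cover the spread between libraries. The main test was limma 3.58.1 in R 4.3.3 on log2(FPKM + 0.1), with a mean-variance trend, 3 group means over all 9 libraries, genes of at least 1 FPKM in at least 3 libraries, and two-sided p-values adjusted over 11265 genes by Benjamini-Hochberg. Fold changes on this scale understate those of low genes. Within-library ratios were compared by exact permutation tests. The ratio of VIM to CDH1 is not printed, since the pseudocount sets it. The script was tested on simulated data.

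The 10 genes and all lists were chosen with earlier results of these data known. Genes named were the 10, TRIB3, up to 4 genes per list called with both hairpins (largest mean fold first), the 5 genes most like each called gene, and all tested keratins. Alternatives covered the pseudocount, filter, scaling, limma voom on the recovered fragments, libraries fitted, a replicate block and leaving out each library.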

Additional observations from a re-analysis of the deposited data

Results flagged for a closer look

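In the limma comparison of shTRIB3-2 with shTRIB3-1, 3 of the 8 tested genes passed, where 45.8% of all tested genes did. On the log2 scale the difference was -0.117 for KRT8 (adjusted p = 0.00804), -0.211 for CDH2 (adjusted p = 0.000258) and 0.128 for EPCAM (adjusted p = 0.0092), and in each case the 3 libraries of one hairpin lay on one side of the 3 of the other. As means, KRT8 dropped by 7.77%, CDH2 dropped by 13.6% and EPCAM was 9.28% higher in shTRIB3-2. TRIB3 was also lower with shTRIB3-2 than with shTRIB3-1, by a log2 difference of -0.71, and its part in these differences was not tested. With 2 hairpins, depth of knockdown and hairpin sequence cannot be told apart.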

How the results depend on the processing

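KRT19 passed against shCtrl in each of 18 alternatives with each hairpin (log2 fold changes 1.38 to 1.51 and 1.38 to 1.52), and ZEB1 in each of the 17 in which it met the filter (0.50 to 0.70 and 0.58 to 0.79). Of 429 alternative fold changes of the 8 tested genes, 402 stayed on their side of the threshold. With median centring, 5 of the 8 passed with each hairpin, among them KRT23 (0.15 and 0.12) and CDH1 (0.15 and 0.18), EPCAM passed with shTRIB3-2 (0.11), and KRT8 with shTRIB3-2 (-0.073) and EPCAM between hairpins (0.10) no longer did. With quantile normalization 6 and 5 passed. KRT8 then turned to 0.10 and 0.088, with -0.014 between hairpins, KRT18 was at -0.13, 0.18 and 0.31 in the 3 comparisons, CDH1 passed with shTRIB3-2 (0.13), and EPCAM passed at -0.12 and 0.071. With TPM, where the median of all tested genes was -0.11 with shTRIB3-1, KRT18 (-0.11) and EPCAM (-0.12) passed and CDH2 (0.093) did not. CDH1 with shTRIB3-2 also passed at 5 FPKM (0.12) and with voom (0.12). Why these differed was not tested. Of the wider lists, 16 and 15 genes were called at 5 FPKM, where fewer were tested, and between hairpins 0 at 5 FPKM, 0 with a pseudocount of 1 and 5 without a filter. Of the listed genes given with values above, PLEC, KRT80 and SPINT2 with both hairpins, KRT20, CDH16 and SNAI1 with shTRIB3-1 and ITGA5 with shTRIB3-2 were no longer called with a pseudocount of 1.

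Leaving out 1 library at a time, 3 to 5 genes passed with shTRIB3-2 (5 without its replicate 2), and 1 to 3 wider-list genes were called between hairpins (1 without shTRIB3-1 replicate 2). The ranges were -0.10 to -0.042 for EPCAM with shTRIB3-1, 0.026 to 0.11 for KRT23 and 0.081 to 0.17 for CDH1 with shTRIB3-2, and -0.049 to 0.012 for the log2 ratio of KRT19 to KRT18 between hairpins. Same-numbered libraries deviated together with r of -0.07 to 0.09, so the numbers gave no evidence of pairing. With the replicate block CDH1 passed with shTRIB3-2 (0.12, adjusted p = 0.0109), so 4 genes did, and no other call on the 8 genes changed. Depth limits VIM and SNAI2.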
